A study of Homo sapiens with 108 samples.

Results

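The response of the human melanoma line HMV-I to X-rays was measured 3 h after irradiation and set against unirradiated cells of the same line. The comparison took 3 arrays of cells given 2 Gy of X-rays and collected 3 h later and 3 arrays of cells given 0 Gy, chosen by their titles from a series of 36 such groups of 3 arrays. It was made across the 29914 of 54359 probes that had a value on every HMV-I array and passed a filter on level, and these represented 12795 named genes. The series covers 6 melanoma lines (HMV-I, 92-1, C32TG, Colo679, HMV-II and MeWo), each exposed to X-rays or to carbon ions and measured unirradiated, at 1 h and at 3 h. The other HMV-I arrays, 3 for each group, hold cells 1 h after 2 Gy of X-rays, cells 1 h and 3 h after 2 Gy of carbon ions, and the unirradiated cells that belong to the carbon-ion set. The X-ray arrays of the 5 other lines at 3 h and at 0 Gy serve for a comparison between lines. All groups are established cell lines, and the labels give no genetic change, drug or culture condition that would separate the groups. When the 0 Gy arrays were collected is not labelled. A change at 1 h or 3 h may thus include effects of handling or of hours spent in culture. Their share was not tested. The labels number the arrays of a group 1 to 3 and do not say that they came from separate cultures, so the p-values measure the spread between these arrays, which may be technical. In RNA of whole cultures, fewer expressing cells and less RNA per cell cannot be told apart.

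Ionising radiation breaks DNA, and the kinase ATM, activated at the breaks, signals to several transcription programmes. One is that of the tumour suppressor p53, whose targets arrest the cell cycle, repair DNA or promote cell death. Another is that of NF-kB, a family of dimeric transcription factors held in the cytoplasm by inhibitors, whose targets include its own subunits and inhibitors, adhesion molecules, chemokines and survival genes. Irradiated cells also halt before mitosis, and the transcripts of mitotic genes, which are made mostly in G2 phase, can then fall.

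The label was checked against genes of the melanocyte lineage. HMV-I carried little of the pigment programme: of 12 lineage genes, 11 were named on the array and 5 passed the level filter. The unirradiated HMV-I arrays averaged 17.1 for MITF, the master regulator of melanocytes, against 105.7 to 164.1 in the 5 other lines. TYR, the rate-limiting enzyme of melanin synthesis, averaged 0.68 in HMV-I, against 151 to 438 in the 5 other lines. HMV-I had the lowest mean of the 6 lines for MITF, PMEL, MLANA, TYR, TYRP1, S100B, SLC45A2 and RAB27A. The next line was close for S100B (0.72 in HMV-I, against 0.74) and RAB27A (28.6, against 30.3). HMV-I ranked 5th for SOX10 and GPR143 and 4th for OCA2. The labels call HMV-I a melanoma line, and in it TYR, TYRP1 and MLANA lay below the median spot. None of the 5 lineage genes that passed the filter changed at 3 h. Markers of other cell types were mostly below the filter: 0 of 6 keratinocyte markers, 0 of 6 leukocyte markers, 2 of 6 fibroblast markers (COL1A1 and COL1A2) and 2 of 5 endothelial markers (PECAM1 and VWF) passed it.

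Values are given as intensity on a linear scale after quantile normalization, close to 1 for a spot at an array's median. The 3 h arrays had medians of 1.03 to 1.05 before normalization, and the unirradiated arrays 1.02 to 1.03. Missing values numbered 1090 to 1816 on the 3 h arrays, the highest number on array 2, and 1034 to 1210 on the unirradiated arrays. The lower quartile lay at 0.563 to 0.579 on the 3 h arrays and at 0.521 to 0.537 on the unirradiated arrays, so the dim end of the scale differed slightly between the groups. Arrays of a group correlated at 0.993 to 0.997 across kept probes, and arrays of different groups at 0.987 to 0.993.

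At 3 h after X-rays, 4429 of the 29914 probes (14.8%) passed an adjusted p of 0.05 in limma's moderated test, 2174 of them higher and 2255 lower. Over all genes, the 3 h arrays all lay above the unirradiated ones in 22.9% and all below them in 15.8%. The changes were small: the median size of a called change was 0.37 on the log2 scale, 443 calls exceeded 1.5-fold and 16 exceeded 2-fold. Among named genes, taken by their brightest probe, 1305 (10.2%) rose and 709 (5.54%) fell, around a median change of 0.020 over all 12795 genes. The split of the called probes depended on the scaling. Rises made up 49.1% of the calls after quantile normalization, 65.5% of 4358 calls after median centring and 64.6% of 3835 calls on the deposited scale. The count itself depended on single arrays: it was 2452 without 3 h array 2, 2939 without 3 h array 3, and 2680, 2928 and 2831 without unirradiated arrays 1, 2 and 3. Without 3 h array 1 it was 3884.

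**Figure D1:**
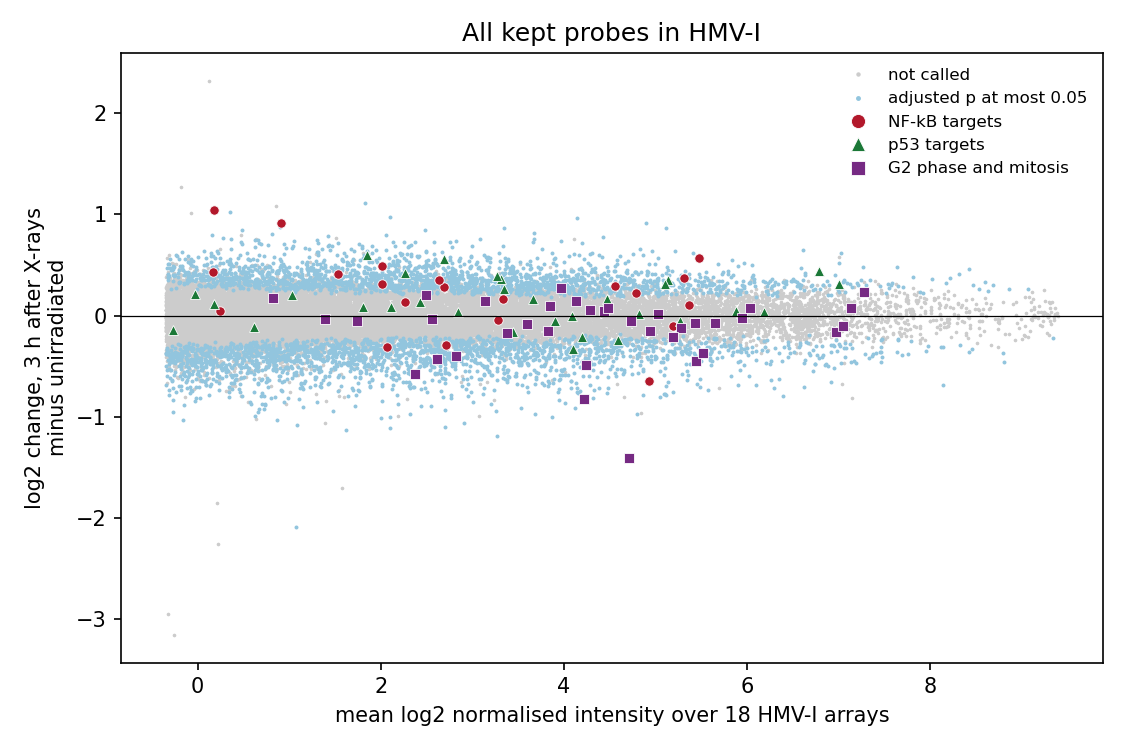
Log2 change (3 h after X-rays minus unirradiated) of every kept probe against its mean log2 normalised intensity over the 18 HMV-I arrays. Called probes are light blue and the others grey, and the named genes of 3 lists are drawn over them. Called changes lie mostly within 1 on the log2 scale at all levels, TRAF1 and RELB stand at the upper left among the NF-kB targets, and PIF1 is the lowest of the mitotic genes.

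NF-kB pathway genes were the list with the largest median change. Of 24 genes, 21 were measured, 11 rose and 3 fell, with a median of 0.28, against 10.2% rising, 5.54% falling and a median of 0.020 over all genes. The genes that rose held 4 of the family's own subunits. RELB, the subunit of the non-canonical dimer, had 3.603, 3.71 and 3.62 on the 3 h arrays, against 1.97, 2.001 and 1.84 on the unirradiated arrays, a log2 change of 0.91 (SE 0.12, adjusted p = 6.55e-05). NFKB1, which encodes p105 and p50, had 59.9, 64.9 and 58.3 on the 3 h arrays, against 42.4, 38.6 and 42.1 on the unirradiated arrays, a log2 change of 0.57 (SE 0.071, adjusted p = 4.63e-05). The groups were well apart for both genes, with every 3 h array above every unirradiated one. NFKB2, which encodes p100 and p52, had 1.05, 1.22 and 1.402 on the 3 h arrays, against 0.9202, 0.963 and 0.821 on the unirradiated arrays. REL, which encodes c-Rel, had 4.61, 4.49 and 4.899 on the 3 h arrays, against 3.55, 3.87 and 3.87 on the unirradiated arrays. Both were called, NFKB2 at 0.43 (adjusted p = 0.0169) and REL at 0.31 (adjusted p = 0.011), again with no overlap between the groups.

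Among the other targets, TRAF1, an adaptor of TNF receptors, changed the most. It had 2.75, 2.39 and 2.56 on the 3 h arrays, against 1.16, 1.21 and 1.38 on the unirradiated arrays, a rise of 2.05-fold, or a log2 change of 1.04 (SE 0.13, adjusted p = 5.97e-05). TRAF1 was dim, near the median spot in unirradiated cells, and its 3 arrays in each group did not overlap. BIRC2, the ubiquitin ligase cIAP1, had 4.93, 5.904 and 6.42 on the 3 h arrays, against 3.98, 4.55 and 3.75 on the unirradiated arrays, a log2 change of 0.49 (SE 0.10, adjusted p = 0.00433). ICAM1, a leukocyte adhesion molecule, had 45.02, 42.4 and 43.8 on the 3 h arrays, against 33.02, 35.6 and 32.8 on the unirradiated arrays, a log2 change of 0.37 (SE 0.080, adjusted p = 0.00443). IRF1, a transcription factor shared with the interferon response, had 3.25, 3.12 and 3.37 on the 3 h arrays, against 2.46, 2.38 and 2.49 on the unirradiated arrays, a log2 change of 0.41 (SE 0.079, adjusted p = 0.00203). The lowest 3 h array exceeded the highest unirradiated array for each of the 3 genes. A second kept probe of IRF1 did not pass at 0.14 (adjusted p = 0.523). Smaller rises passed the test for TNFAIP2 (0.35, adjusted p = 0.0288), BCL3, a nuclear partner of p50 and p52 (0.30, adjusted p = 0.0187), and the inhibitor NFKBIE (0.28, adjusted p = 0.0286).

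A pair of chemokines and a cytokine went the other way. CXCL2, a neutrophil attractant, had 65.1, 65.5 and 62.1 on the 3 h arrays, against 89.7, 110.4 and 102 on the unirradiated arrays, a log2 change of -0.64 (SE 0.082, adjusted p = 5.53e-05). CXCL3, its close relative, had 5.82, 5.36 and 5.41 on the 3 h arrays, against 7.08, 6.95 and 6.62 on the unirradiated arrays, a log2 change of -0.32 (SE 0.077, adjusted p = 0.00987). TNF, the cytokine that classically activates the pathway, had 6.16, 6.296 and 5.51 on the 3 h arrays, against 7.13, 7.79 and 7.08 on the unirradiated arrays, a log2 change of -0.29 (SE 0.093, adjusted p = 0.0393). All 3 h arrays lay below all unirradiated arrays for these genes. The other chemokines measured did not pass, CXCL8 at -0.041 (adjusted p = 0.842) and CCL2 at 0.040 (adjusted p = 0.829). NFKBIA, the inhibitor IkB-alpha and an early target of the pathway, had 34.4, 31.97 and 30.6 on the 3 h arrays, against 38.1, 31.9 and 34.04 on the unirradiated arrays, a change of -0.099 that did not pass (adjusted p = 0.4) and whose sign turned to 0.0061 after median centring and to 0.0078 on the deposited scale.

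Leaving out any 1 of the 6 arrays kept the calls of RELB, TRAF1, NFKB1, BIRC2, ICAM1, IRF1, CXCL2 and CXCL3. The list's count of rises was 7 without unirradiated array 3 and 8 without 3 h array 1 or 3 h array 3. NFKB2 missed the threshold at 0.33 without 3 h array 3 and at 0.37 without unirradiated array 3, and REL at 0.28 without 3 h array 3 and 0.27 without unirradiated array 1. BCL3 missed it at 0.24 without 3 h array 1 and 0.27 without unirradiated array 3. NFKBIE missed it without 3 h arrays 1 (0.24) and 2 (0.27) and unirradiated arrays 2 (0.27) and 3 (0.25). TNFAIP2 missed it under 5 of the 6 omissions, down to 0.28 without unirradiated array 3, and TNF under all 6, down to -0.23 without 3 h array 3. Median centring ended the call of TNF as well (-0.23).

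**Figure D2:**
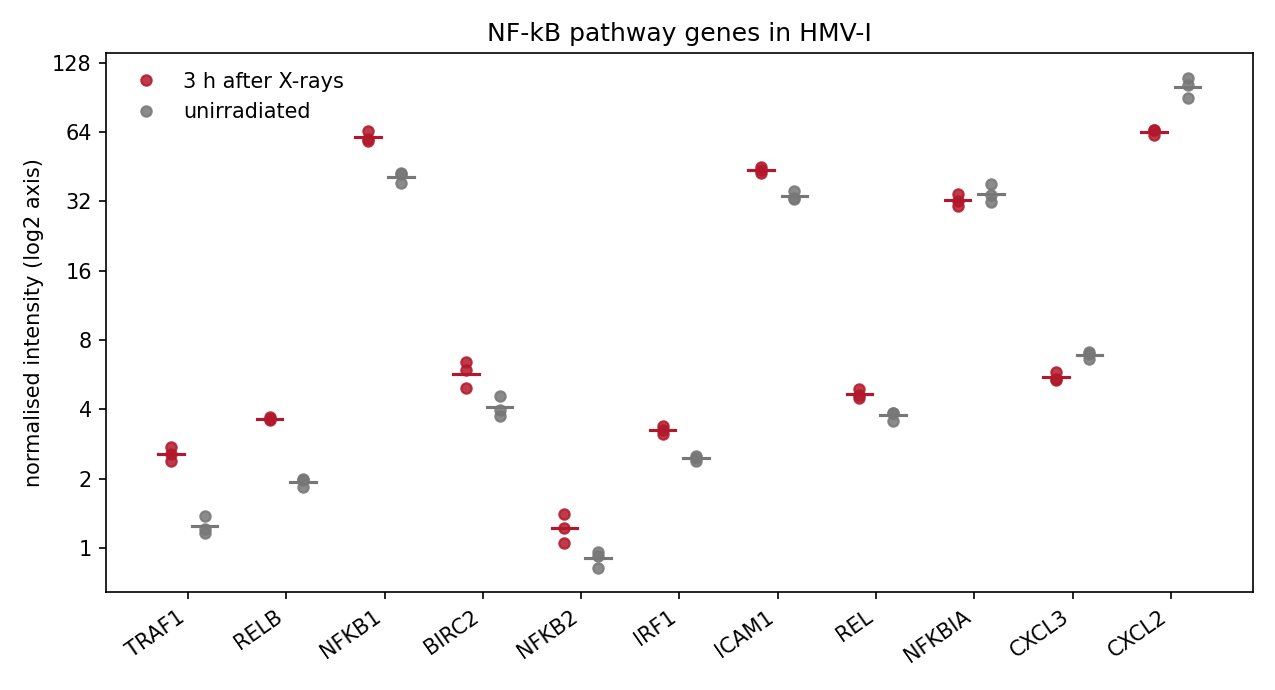
Normalised intensity (log2 axis) of 11 NF-kB pathway genes on each HMV-I array, the 3 arrays at 3 h after X-rays left of the 3 unirradiated ones, with a bar at each group's geometric mean. The groups do not overlap for 8 genes that rose (TRAF1 to REL) or for CXCL3 and CXCL2, which fell, while the points of NFKBIA overlap.

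The promoters of these genes are shown because the data have several pathway members moving together and the family's binding consensus is well defined. RefSeq promoters (GRCh38.p14), from 250 bases before to 50 bases after the gene's start, were found for 9 of the 11 genes that rose and for the 3 that fell. The NF-kB consensus of 10 letters, searched on both strands, was in the window of 5 of the 9 (BCL3, IRF1, NFKB1, NFKB2 and REL) and of 2 of the 3 (CXCL2 and CXCL3), against 5.91% of all 35116 promoters, or 7.09% of 27305 genes with at least 1 such window. Genes that rose and genes that fell thus both held it. The genes searched come from a list of known NF-kB targets, and list members that were not called were not searched. A share above that of all promoters therefore says nothing about the change at 3 h. It was in 0 of the 6 mitotic genes described further on that had a window. Matches are in capitals below. In NFKB2 and CXCL2 a pair of overlapping matches reads as 1 longer run, and NFKB2 holds a further match downstream of it.
NFKB1, chr4:102501109-102501408, plus strand: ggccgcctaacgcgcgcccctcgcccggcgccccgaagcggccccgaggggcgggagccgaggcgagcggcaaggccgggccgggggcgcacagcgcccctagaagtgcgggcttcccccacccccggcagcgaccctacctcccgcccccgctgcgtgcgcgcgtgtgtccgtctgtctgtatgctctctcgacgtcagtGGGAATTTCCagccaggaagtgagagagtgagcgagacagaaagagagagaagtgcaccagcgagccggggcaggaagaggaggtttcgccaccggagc
NFKB2, chr10:102394328-102394627, plus strand: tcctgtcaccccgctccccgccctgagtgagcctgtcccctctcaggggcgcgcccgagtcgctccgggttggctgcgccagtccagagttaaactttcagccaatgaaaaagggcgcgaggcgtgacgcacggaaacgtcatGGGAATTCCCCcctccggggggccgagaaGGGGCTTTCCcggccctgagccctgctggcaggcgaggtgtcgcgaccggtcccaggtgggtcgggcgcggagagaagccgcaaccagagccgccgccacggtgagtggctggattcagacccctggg
IRF1, chr5:132490724-132491023, minus strand: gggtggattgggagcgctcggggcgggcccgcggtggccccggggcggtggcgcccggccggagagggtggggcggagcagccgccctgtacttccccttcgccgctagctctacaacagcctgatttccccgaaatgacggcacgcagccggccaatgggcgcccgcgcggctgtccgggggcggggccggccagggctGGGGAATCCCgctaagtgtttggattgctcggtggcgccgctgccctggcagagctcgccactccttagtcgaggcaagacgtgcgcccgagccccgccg
CXCL2, chr4:74099146-74099445, minus strand: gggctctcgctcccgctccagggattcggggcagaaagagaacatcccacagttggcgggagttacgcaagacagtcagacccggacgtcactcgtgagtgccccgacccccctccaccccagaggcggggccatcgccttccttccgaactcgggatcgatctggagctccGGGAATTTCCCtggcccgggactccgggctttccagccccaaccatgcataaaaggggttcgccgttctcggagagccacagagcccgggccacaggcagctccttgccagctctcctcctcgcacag
A match is a description of the letters in this window and was not tested as a binding site.

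Targets of p53 rose modestly. Of 36 genes on the list, 31 were measured. By the brightest probe of each, 10 rose and 1 fell, with a median change of 0.12, against 10.2% and 5.54% and a median of 0.020 over all genes. FAS, a death receptor, had 3.39, 3.43 and 3.92 on the 3 h arrays, against 2.55, 2.25 and 2.29 on the unirradiated arrays, a log2 change of 0.60 (SE 0.085, adjusted p = 0.00014). SESN1, a sestrin that restrains mTOR signalling, had 6.602, 7.44 and 7.64 on the 3 h arrays, against 4.98, 4.78 and 4.97 on the unirradiated arrays, a log2 change of 0.56 (SE 0.10, adjusted p = 0.00175). CDKN1A, the cell-cycle inhibitor p21, had 198, 212 and 187 on the 3 h arrays, against 146, 145 and 147 on the unirradiated arrays, a 1.36-fold rise, or a log2 change of 0.44 (SE 0.073, adjusted p = 0.000553). The groups did not overlap for these genes, and the unirradiated level of CDKN1A was already high on the scale. PPM1D, the phosphatase Wip1 that switches off the damage response, had 4.74, 5.35 and 5.304 on the 3 h arrays, against 3.89, 3.897 and 3.699 on the unirradiated arrays, a log2 change of 0.42 (SE 0.077, adjusted p = 0.00135). RRM2B, the p53-inducible subunit of ribonucleotide reductase, had 11.9, 12.2 and 12.2 on the 3 h arrays, against 9.22, 9.05 and 9.51 on the unirradiated arrays, a log2 change of 0.39 (SE 0.088, adjusted p = 0.00617). GDF15, a secreted stress cytokine, had 249.7, 248 and 260.5 on the 3 h arrays, against 200, 211 and 199.9 on the unirradiated arrays, a log2 change of 0.31 (SE 0.077, adjusted p = 0.0107). These 3 genes too had every 3 h array above every unirradiated array.

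The other rises on the p53 list were PLK3, a stress-responsive polo-like kinase, at 0.36 (adjusted p = 0.0102), TNFRSF10B, the TRAIL receptor DR5, at 0.35 (adjusted p = 0.0106), ATF3, a stress-induced transcription factor, at 0.31 (adjusted p = 0.0486), and SERTAD1 at 0.26 (adjusted p = 0.0282). The single fall was PLK2, another polo-like kinase, with 14.8, 13.2 and 15.5 on the 3 h arrays, against 16.4, 17.3 and 17.8 on the unirradiated arrays, a log2 change of -0.24 (SE 0.080, adjusted p = 0.0449). MDM2, which encodes the ubiquitin ligase that degrades p53, had 3.58, 3.84 and 3.83 on the 3 h arrays, against 3.28, 3.58 and 3.77 on the unirradiated arrays and did not pass (0.082, adjusted p = 0.507). GADD45A, a growth-arrest gene, did not pass either, with 144, 146 and 127 on the 3 h arrays, against 146, 132 and 128 on the unirradiated arrays (0.037, adjusted p = 0.783). Of the 11 measured genes among p53's regulators, 3 rose and none fell, against 10.2% rising and 5.54% falling of all genes. PPM1D, which is on both lists, was 1 of them. The others were MDM4, an inhibitor of p53, at 0.27 (adjusted p = 0.0137), and USP7, the deubiquitinase of MDM2 and p53, at 0.31 (adjusted p = 0.00444). The direction of MDM4 differed between its probes: a second kept probe fell (-0.46, adjusted p = 0.0288) and another did not pass at -0.22 (adjusted p = 0.171). A second probe of USP7 did not pass at -0.096 (adjusted p = 0.81).

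The calls of FAS, SESN1, CDKN1A, PPM1D, RRM2B, GDF15 and USP7 held whichever of the 6 arrays was left out, although GDF15 missed the threshold after median centring (0.30) and on the deposited scale (0.30). PLK3 missed it without unirradiated array 1 (0.31), MDM4 without unirradiated array 2 (0.23), and TNFRSF10B without 3 h array 2 (0.31) or 3 h array 3 (0.31). SERTAD1 lost its call without 3 h arrays 1 (0.24) and 2 (0.24) and without unirradiated arrays 1 (0.28), 2 (0.26) and 3 (0.26). ATF3 lost it under all 6 omissions (from 0.27 without unirradiated array 3 to 0.35 without 3 h array 2). PLK2 lost it under 5 of the 6 (weakest without 3 h array 2, at -0.18) and after median centring (-0.14). A second probe of TNFRSF10B did not pass and had the opposite sign (-0.12, adjusted p = 0.331). Second kept probes rose for PHLDA3 (0.50, adjusted p = 0.0031) and TIGAR (0.31, adjusted p = 0.0053). The brightest probes of these genes did not pass (0.032 and 0.011). No other second kept probe of a p53 target passed.

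The p53 targets changed less in HMV-I than in most of the lines. Over the 29 targets measured in all 6 lines, the median change 3 h after X-rays was 0.13 in HMV-I, against 0.79 in 92-1, 0.59 in C32TG, 0.43 in HMV-II, 0.36 in Colo679 and 0.15 in MeWo, while the medians of all 11300 genes ran from -0.052 to 0.080. HMV-I and MeWo cannot be ranked from these medians, since the median of all genes was 0.020 in HMV-I, against 0.080 in MeWo. The difference between HMV-I and the mean of the other 5 lines passed for 14 of these targets, all with a smaller rise or a fall in HMV-I, and for 0 in the other direction, against 2.73% and 2.85% of all 11300 genes. CDKN1A changed by 0.44 in HMV-I, against 2.28 in 92-1, 1.78 in C32TG, 1.55 in Colo679, 0.63 in HMV-II and 0.42 in MeWo, a difference of -0.89 (adjusted p = 7.59e-07). GADD45A changed by 0.037 in HMV-I and by 0.16 to 1.79 in the other lines, a difference of -0.87 (adjusted p = 3.93e-06). ATF3 and PLK3 differed by -0.66 (adjusted p = 0.000973) and -0.52 (adjusted p = 0.00781). MeWo stood nearest for CDKN1A, and HMV-I was not tested against that line alone. FAS, with 0.60 in HMV-I and 0.20 to 1.21 in the others, did not differ beyond the spread (-0.26, adjusted p = 0.14).

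**Figure D3:**
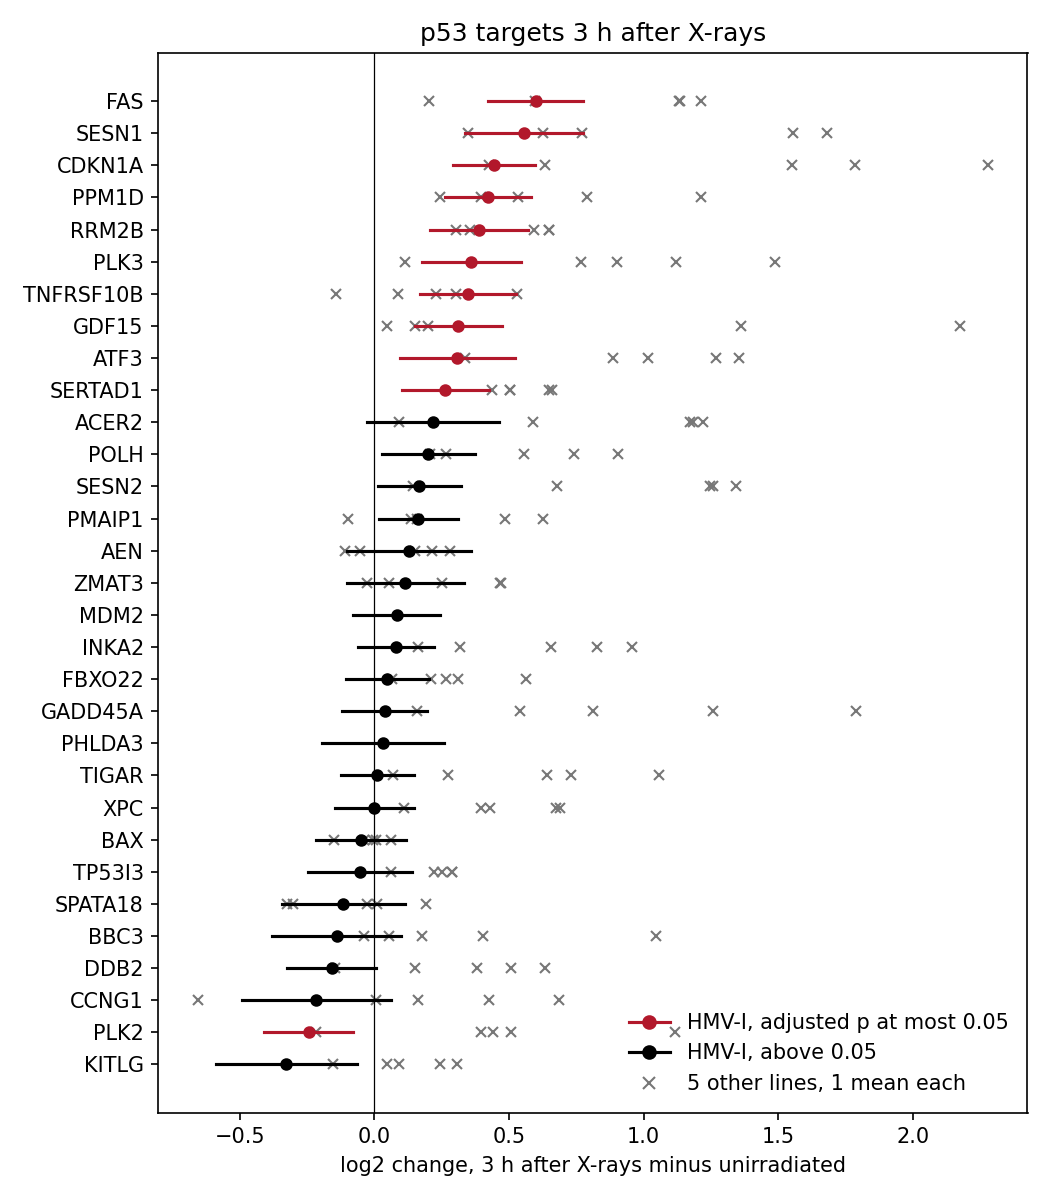
Log2 change 3 h after X-rays of 31 measured p53 targets. Circles with 95% intervals are HMV-I, red where called, and grey crosses are the mean changes of the 5 other lines, which are drawn for the 29 targets measured in all lines. For CDKN1A, ATF3 and GADD45A most crosses lie to the right of the HMV-I interval, while for TNFRSF10B the crosses lie on both sides.

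Genes of G2 phase and mitosis fell in part. Of 36 measured, 8 fell and 1 rose, against 5.54% falling and 10.2% rising of all genes, and the list's median was -0.062, which turned to 0.0043 after median centring and 0.0059 on the deposited scale. PIF1, a DNA helicase, had the largest fall among the genes that passed, with 10.4, 9.30 and 8.78 on the 3 h arrays, against 26.7, 23.8 and 25.2 on the unirradiated arrays, 2.66-fold lower at 3 h, or a log2 change of -1.41 (SE 0.072, adjusted p = 2.08e-10). PSRC1, a microtubule regulator of the spindle, had 11.7, 10.9 and 10.6 on the 3 h arrays, against 21.3, 19.3 and 18.3 on the unirradiated arrays, a log2 change of -0.82 (SE 0.11, adjusted p = 7.48e-05). The 3 h arrays of both genes lay far below the unirradiated ones. KIF20A, a kinesin of cytokinesis, had 1.77, 2.02 and 2.09 on the 3 h arrays, against 2.72, 3.001 and 3.05 on the unirradiated arrays, a log2 change of -0.58 (SE 0.10, adjusted p = 0.00117). CENPA, the histone variant of centromeres, had 15.8, 16.9 and 15.9 on the 3 h arrays, against 22.3, 22.01 and 24.1 on the unirradiated arrays, a log2 change of -0.49 (SE 0.089, adjusted p = 0.00122). CDK1, the kinase that drives entry into mitosis, had 24.4, 25.2 and 24.1 on the 3 h arrays, against 32.03, 34.8 and 33.7 on the unirradiated arrays, a log2 change of -0.45 (SE 0.085, adjusted p = 0.00197). None of these groups overlapped.

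CCNF, which encodes cyclin F, fell by 0.43 on the log2 scale (adjusted p = 0.00222), TTK, a kinase of the spindle checkpoint, by 0.40 (adjusted p = 0.00427), and AURKA, the centrosomal Aurora kinase, by 0.37 (adjusted p = 0.00449). UBE2C, the ubiquitin-conjugating enzyme of the anaphase-promoting complex, was the member that rose, at 0.24 (adjusted p = 0.0353). The others did not pass, among them ASPM (-0.21, adjusted p = 0.0842), CCNB1, the partner of CDK1 (-0.16, adjusted p = 0.143), and PLK1 (-0.16, adjusted p = 0.251). The 8 falls held whichever array was left out. Median centring ended the calls of CDK1 (-0.32) and AURKA (-0.26), and that of UBE2C ended under all 6 omissions (down to 0.21 without 3 h array 1). Without 3 h array 3, ASPM passed at -0.31.

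Of these 8 genes, 6 had a promoter window. Many mitotic promoters carry a CHR element, TTTGAA, near a CCAAT box, and both were searched on both strands. TTTGAA was in 4 of the 6 (CCNF, CDK1, CENPA and PIF1), against 15.16% of all promoters and 18.17% of genes, and in 0 of the 9 NF-kB genes that rose. CCAAT was in 6 of the 6, against 34.61% of promoters and 39.72% of genes. Members of the mitotic list that did not fall were not searched, so these shares too say nothing about the change at 3 h. The windows of PIF1 and CENPA are shown with both motifs in capitals, CCAAT on the opposite strand reading ATTGG.
PIF1, chr15:64825598-64825897, minus strand: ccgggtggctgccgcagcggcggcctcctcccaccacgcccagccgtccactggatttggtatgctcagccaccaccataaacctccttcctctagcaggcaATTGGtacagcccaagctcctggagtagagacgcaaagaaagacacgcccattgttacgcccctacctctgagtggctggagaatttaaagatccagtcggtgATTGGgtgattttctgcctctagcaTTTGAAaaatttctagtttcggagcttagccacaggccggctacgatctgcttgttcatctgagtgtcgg
CENPA, chr2:26785806-26786105, plus strand: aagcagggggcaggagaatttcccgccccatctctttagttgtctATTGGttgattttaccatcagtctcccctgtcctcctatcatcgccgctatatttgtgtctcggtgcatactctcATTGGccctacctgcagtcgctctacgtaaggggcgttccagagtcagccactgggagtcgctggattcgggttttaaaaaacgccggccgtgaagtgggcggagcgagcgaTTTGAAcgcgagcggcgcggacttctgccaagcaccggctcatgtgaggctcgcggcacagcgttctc
No motif overlaps another in these windows, and neither was tested as a binding site.

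Genes of growth-factor and BMP signalling moved in both directions. ID1, an inhibitor of differentiation and a direct BMP target, had 4.98, 5.07 and 4.85 on the 3 h arrays, against 10.5, 10.6 and 9.94 on the unirradiated arrays, 2.08-fold lower, or a log2 change of -1.06 (SE 0.083, adjusted p = 2.32e-07). CCN1, a matricellular protein also known as CYR61, had 28.7, 29.0 and 28.5 on the 3 h arrays, against 53.1, 44.2 and 43.97 on the unirradiated arrays, a log2 change of -0.71 (SE 0.071, adjusted p = 6.5e-06). THBS1, the matrix protein thrombospondin, had 2.22, 2.45 and 2.34 on the 3 h arrays, against 1.52, 1.39 and 1.37 on the unirradiated arrays, a log2 change of 0.71 (SE 0.11, adjusted p = 0.000257). Every 3 h array lay below the unirradiated arrays for ID1 and CCN1, and above them for THBS1. By the brightest probes of 13 measured TGF-beta and BMP targets, THBS1 alone rose and 3 fell, against 10.2% and 5.54% of all genes. The list's median was -0.099, against 0.020 over all genes. The third fall was ID2, at -0.41 (adjusted p = 0.0474). The call of ID2 was lost after median centring (-0.34) and under 5 of the 6 omissions, down to -0.34 without 3 h array 3. Other kept probes of ID2 did not pass, at -0.063 (adjusted p = 0.818) and -0.21 (adjusted p = 0.0788). A second kept probe of THBS1 did not pass at 0.42 (adjusted p = 0.0693). Other kept probes of TGIF1 (0.55, adjusted p = 0.00105) and SKIL (0.32, adjusted p = 0.0321) rose, while the brightest probes of these genes did not pass (0.20 and 0.35). A further kept probe of TGIF1 did not pass at -0.054 (adjusted p = 0.788).

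The immediate early genes, which answer stimuli within minutes, gave 3 rises and 2 falls among 22 measured, near the 10.2% and 5.54% of all genes. FOS had 5.22, 5.47 and 5.17 on the 3 h arrays, against 8.36, 9.63 and 8.37 on the unirradiated arrays, a log2 change of -0.73 (SE 0.092, adjusted p = 5.16e-05). FOSL1, a later member of the same AP-1 family, had 27.8, 26.1 and 26.5 on the 3 h arrays, against 17.3 to 18.7 on the 3 unirradiated arrays, a log2 change of 0.58 (SE 0.067, adjusted p = 2.34e-05), and its second probe rose as well (0.50, adjusted p = 0.00294). The groups were apart in opposite directions for these relatives. The other fall was CCN1, and the other rises were ATF3 and KLF4 (0.24, adjusted p = 0.0423), whose call was lost under every omission (down to 0.20 without 3 h array 1). EGR1 did not pass (-0.14, adjusted p = 0.415). Of 11 genes in the feedback of the MAPK pathway, 3 rose and 0 fell, with a median of 0.20, against 10.2%, 5.54% and a median of 0.020 over all genes. ETV5, a transcription factor downstream of ERK, had 25.03, 27.4 and 27.4 on the 3 h arrays, against 17.7, 19.5 and 17.4 on the unirradiated arrays, a log2 change of 0.55 (SE 0.070, adjusted p = 5.53e-05), and PHLDA1 reached 0.36 (adjusted p = 0.00197). FOSL1 is also on this list, and DUSP6, an ERK phosphatase, did not pass (0.083, adjusted p = 0.524).

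Of 18 genes of the integrated stress and unfolded protein responses, 5 rose and 0 fell, with a median of 0.17, against 10.2%, 5.54% and a median of 0.020 over all genes. PPP1R15A, known as GADD34, which lets translation resume after stress, had 4.47 to 5.04 on the 3 arrays at 3 h, against 2.897, 3.09 and 1.82 on the unirradiated arrays, a log2 change of 0.88 (SE 0.23, adjusted p = 0.0139). DNAJB9, a chaperone of the endoplasmic reticulum, had 8.13, 10.4 and 10.98 on the 3 h arrays, against 6.33, 7.57 and 6.96 on the unirradiated arrays, a log2 change of 0.49 (SE 0.11, adjusted p = 0.00594). CHAC1, which degrades glutathione, had 64.5, 53.2 and 56.3 on the 3 h arrays, against 48.8, 42.5 and 44.3 on the unirradiated arrays, a log2 change of 0.36 (SE 0.075, adjusted p = 0.00382). The 3 h arrays were higher throughout, and unirradiated array 3 lay below the other two for PPP1R15A. Without that array its change was 0.64 and no longer passed, and likewise without 3 h array 2 (0.82). CEBPB and CRELD2 also passed, at 0.22 (adjusted p = 0.0398) and 0.21 (adjusted p = 0.0223). CEBPB missed the threshold under 5 of the 6 omissions, down to 0.15 without unirradiated array 2, and CRELD2 under 4, down to 0.17 without the same array. A second kept probe of CEBPB did not pass and had the opposite sign (-0.12, adjusted p = 0.468).

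Among 13 heat shock chaperones, 2 rose and 0 fell, near the 10.2% and 5.54% of all genes. HSPA8, the constitutive HSC70, had 202, 205 and 199 on the 3 h arrays, against 161, 148 and 148 on the unirradiated arrays, a log2 change of 0.41 (SE 0.071, adjusted p = 0.000887), and HSP90AB1 had 109.7, 142 and 123 on the 3 h arrays, against 81.5, 98.1 and 87.6 on the unirradiated arrays, a log2 change of 0.48 (SE 0.11, adjusted p = 0.00474). Both calls held under each omission. Of 18 interferon-stimulated genes, 4 rose and 1 fell, against the same shares of all genes. IFIT3, an antiviral effector, had 1.695, 1.82 and 1.83 on the 3 h arrays, against 1.09, 1.198 and 1.18 on the unirradiated arrays, a log2 change of 0.63 (SE 0.078, adjusted p = 4.63e-05). OAS3, a sensor of double-stranded RNA, had 3.13, 3.98 and 3.57 on the 3 h arrays, against 2.199, 2.78 and 2.34 on the unirradiated arrays, a log2 change of 0.55 (SE 0.14, adjusted p = 0.0124), whereas its relative OAS2 fell, with 5.13, 4.41 and 4.98 on the 3 h arrays, against 6.53, 6.702 and 5.88 on the unirradiated arrays, a log2 change of -0.40 (SE 0.089, adjusted p = 0.00587). These relatives moved apart, each without overlap of the groups. OAS3 missed the threshold without 3 h array 2 (0.46) or unirradiated array 1 (0.47). The other rises were IRF1 and IFITM1. IFITM1 was at 0.22 (adjusted p = 0.0462) and lost its call under 5 of the 6 omissions, down to 0.17 without 3 h array 1. A second kept probe of IFITM1 did not pass at -0.032 (adjusted p = 0.841).

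Replication genes were called in both directions. Of 26 genes of the G1/S transition and replication, 4 rose and 1 fell, against 10.2% and 5.54% of all genes. RRM2, the S-phase subunit of ribonucleotide reductase, had 10.7, 14.1 and 13.9 on the 3 h arrays, against 6.67, 8.21 and 7.03 on the unirradiated arrays, a log2 change of 0.82 (SE 0.10, adjusted p = 4.63e-05), but a dimmer second probe that was not tested changed by -0.15. PCNA, the sliding clamp of replication, had 18.1, 19.4 and 23.4 on the 3 h arrays, against 26.6, 27.4 and 25.8 on the unirradiated arrays, a log2 change of -0.40 (SE 0.11, adjusted p = 0.0194). PCNA missed the threshold after median centring (-0.28) and without 3 h arrays 1 (-0.32) and 2 (-0.37) and unirradiated arrays 1 (-0.40) and 2 (-0.38). The helicase subunits MCM2 (0.25) and MCM4 (0.23) and the replication factor MCM10 (0.26) passed narrowly, with adjusted p of 0.0367, 0.0427 and 0.0219. MCM2 and MCM10 missed it under 4 of the 6 omissions and MCM4 under 5, down to 0.20, 0.22 and 0.18 without 3 h array 3.

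Of 15 genes of homologous recombination, 1 rose and 0 fell, near the 10.2% and 5.54% of all genes. The rise was that of PALB2, which links BRCA1 to BRCA2. PALB2 had 26.6, 27.2 and 26.3 on the 3 h arrays, against 20.7, 20.9 and 18.8 on the unirradiated arrays, a log2 change of 0.41 (SE 0.074, adjusted p = 0.00113). Of 21 genes of end joining and excision repair, 4 rose and 0 fell, against 10.2% and 5.54% of all genes: ERCC5 (0.44, adjusted p = 0.022), DDB1 (0.29, adjusted p = 0.03), PRKDC, the catalytic subunit of DNA-PK (0.24, adjusted p = 0.0333), and PARP1 (0.24, adjusted p = 0.045). Each of these 4 lost its call when single arrays were left out, and the count of rises on the list ran from 0 to 3. Without unirradiated array 1 they stood at 0.32, 0.24, 0.22 and 0.27, and without 3 h array 2 at 0.38, 0.24, 0.22 and 0.18. PALB2 kept its call under each omission. These counts rest on the brightest probe of each gene. Other kept probes rose for XRCC2 (0.32, adjusted p = 0.0141) and DCLRE1C (0.28, adjusted p = 0.0271). The brightest probes of these genes did not pass, at -0.083 and -0.18. None of the other kept probes on either list was called as a fall.

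Of 19 apoptosis regulators, 3 rose and 1 fell, near the 10.2% and 5.54% of all genes. The rises were FAS, TNFRSF10B and BAK1, a pore-forming BCL-2 family member, at 0.27 (adjusted p = 0.025). BMF, a BH3-only protein, fell, at -0.35 (adjusted p = 0.0201). BAK1 missed the threshold without 3 h arrays 2 (0.25) and 3 (0.27) and unirradiated arrays 1 (0.24) and 2 (0.25), and BMF without 3 h array 2 (-0.30) and unirradiated array 1 (-0.26) and after median centring (-0.27). NEAT1, the long non-coding RNA that builds paraspeckles, had 66.2, 86.5 and 98.6 on the 3 h arrays, against 125, 148 and 159.8 on the unirradiated arrays, a log2 change of -0.79 (SE 0.17, adjusted p = 0.00519), and a second kept probe of it fell as well (-0.33, adjusted p = 0.0489). On the list of long non-coding RNAs and paraspeckle proteins, NEAT1 was the single call among 10 measured genes by their brightest probes. The brightest probe of SNHG8, a host of small nucleolar RNAs, did not pass at 0.0048, and a second probe fell (-0.62, adjusted p = 5.14e-05). Of the dedifferentiated melanoma genes, 2 of 13 rose and CCN1 fell, near the 10.2% and 5.54% of all genes. AXL, a receptor tyrosine kinase, reached 0.44 (adjusted p = 0.0114) and EGFR 0.42 (adjusted p = 0.00836). Without unirradiated array 3, whose values of both were the lowest, AXL stood at 0.32 and EGFR at 0.34, and neither passed. Other kept probes of EGFR did not pass, at -0.045 (adjusted p = 0.864) and 0.030 (adjusted p = 0.893).

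Several lists held few or no calls. By the brightest probe of each gene, none passed among 10 histone genes, 12 NRF2 targets, 20 genes of sterol and lipid synthesis, 18 genes of the mitochondrial respiratory chain and 5 melanocyte lineage genes, against 14.8% of all probes. By their brightest probes, single members passed among 21 splicing factors (SRSF5, 0.29, adjusted p = 0.0312) and 18 ribosomal proteins (RPL32, -0.22, adjusted p = 0.0488). The call of either was lost whichever array was left out, SRSF5 down to 0.27 without unirradiated array 3 and RPL32 down to -0.18 without unirradiated array 1. Other probes of splicing factors passed as well: 1 of SRSF1 fell (-0.65, adjusted p = 0.000106), 1 of SRSF6 rose (0.41, adjusted p = 0.00891) and 2 of SRSF3 rose (0.32, adjusted p = 0.0182, and 0.22, adjusted p = 0.044). RPL32 lay near the top of the intensity scale and stood at -0.084 after median centring. Of 20 hypoxia and glycolysis genes, HK2, a hexokinase, rose (0.36, adjusted p = 0.0221), and ADM (-0.28, adjusted p = 0.0496) and ALDOC (-0.26, adjusted p = 0.0456) fell. Of all genes, 10.2% rose and 5.54% fell. ADM missed the threshold under all 6 omissions (down to -0.20 without unirradiated array 3), ALDOC under 4 (down to -0.16 without 3 h array 3) and HK2 under 3 (down to 0.25 without 3 h array 3). A second kept probe of HK2 did not pass and had the opposite sign (-0.34, adjusted p = 0.298). COL1A2, a fibroblast collagen gene that passed the level filter in HMV-I, rose at 0.36 (adjusted p = 0.0194), with 1.48, 1.41 and 1.54 on the 3 h arrays, against 1.16, 1.11 and 1.18 on the unirradiated arrays, and missed the threshold without 3 h array 3 (0.33) or unirradiated array 2 (0.34). COL1A1 did not pass (-0.13, adjusted p = 0.329). The mean log2 level of the 2 measured fibroblast genes, COL1A1 and COL1A2, was 1.24 to 1.34 on the 3 h arrays, against 1.14 to 1.19 on the unirradiated arrays. The remaining fibroblast markers did not pass the filters and are not in this mean. The part of these genes in other results was not tested.

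The largest rises among genes whose groups did not overlap, by the rule given with the processing, were of mixed function. SEC24B, a coat protein of vesicles leaving the endoplasmic reticulum, headed them at 1.11 (adjusted p = 0.0313), but rested on 1 array: it had 14.6, 3.33 and 3.09 on the 3 h arrays, against 2.203, 2.72 and 2.49 on the unirradiated arrays, and changed by 0.38 without 3 h array 1. TRAF1 came next. EIF5A, a translation factor, had 33.1, 40.1 and 34.2 on the 3 h arrays, against 21.9, 22.9 and 13.5 on the unirradiated arrays, a log2 change of 0.92 (SE 0.22, adjusted p = 0.00823), with a second probe that rose too (0.73, adjusted p = 0.0145). SERPINE2, an inhibitor of serine proteases, had 22.7, 29.8 and 29.7 on the 3 h arrays, against 13.2, 16.9 and 14.97 on the unirradiated arrays, a log2 change of 0.86 (SE 0.10, adjusted p = 3.76e-05), while its second probe did not pass at -0.20. Unirradiated array 3 was the lowest of its group for EIF5A, and array 1 was the lowest of both groups for SERPINE2. YWHAG, which encodes 14-3-3 gamma, had 3.98, 5.35 and 5.29 on the 3 h arrays, against 2.89, 2.66 and 2.78 on the unirradiated arrays, a log2 change of 0.80 (SE 0.14, adjusted p = 0.00129). TJP1, the tight junction protein ZO-1, had 7.02, 9.63 and 8.46 on the 3 h arrays, against 4.47, 5.69 and 4.85 on the unirradiated arrays, a log2 change of 0.74 (SE 0.11, adjusted p = 0.000277). The 3 h arrays were higher in each, by 1.67-fold for TJP1 and 1.89-fold for EIF5A.

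The remaining rises of the 20 lay between 0.73 for STARD7, a lipid transfer protein, and 0.91 for RELB, and besides PPP1R15A and RRM2 they were EEF1A2, a translation elongation factor (0.87), ESRG (0.85), FKBP8 (0.85), PES1, a ribosome biogenesis factor (0.79), UBXN2B (0.77), the erythropoietin receptor EPOR (0.76), COPG1, a coat protein of retrograde vesicles (0.75), the ubiquitin ligase HECTD3 (0.75), BTBD2 (0.74) and FHL3 (0.74). Array 1 was the lowest of the 3 h arrays for 14 of these 20 genes and for 50.4% of all genes that rose. In the unirradiated group, arrays 1 and 3 were each the lowest for 9 of the 20. Of all genes that rose, unirradiated array 1 was the lowest of its group in 37.9% and unirradiated array 3 in 32.6%. Without unirradiated array 3, EIF5A (0.67), FKBP8 (0.64) and BTBD2 (0.67) missed the threshold, and BTBD2 also without 3 h array 2 (0.67). EPOR missed it under 5 of the 6 omissions, at 0.50 without unirradiated array 2. ESRG was 0.36 without unirradiated array 1 and missed the threshold without 3 h array 2 (0.84) or 3 (0.84). SEC24B missed it without unirradiated array 1 (1.03), 2 (1.18) or 3 (1.12). The calls of SEC24B, ESRG and CDX2, which is described with the falls, also ended where the fit held only the 6 arrays compared.

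After PIF1 and ID1, the largest fall was that of FUBP1, a regulator of transcription that binds single-stranded DNA. FUBP1 had 8.88, 8.34 and 8.86 on the 3 h arrays, against 16.8, 17.4 and 18.1 on the unirradiated arrays, 2.004-fold lower, or a log2 change of -1.003 (SE 0.086, adjusted p = 8.38e-07), though a second probe did not pass at 0.24 (adjusted p = 0.151). ZNF793, a zinc finger gene, had 7.27, 6.62 and 6.61 on the 3 h arrays, against 13.5, 12.7 and 13.4 on the unirradiated arrays, a log2 change of -0.95 (SE 0.073, adjusted p = 1.92e-07). AHSA2P, a pseudogene related to the HSP90 activator AHSA1, had 3.54, 3.42 and 3.41 on the 3 h arrays, against 6.79, 6.03 and 6.51 on the unirradiated arrays, a log2 change of -0.90 (SE 0.078, adjusted p = 8.53e-07). In each of these, the 3 h arrays were tightly grouped below the unirradiated ones. A second kept probe of AHSA2P did not pass at -0.17 (adjusted p = 0.342). HLA-DMB, which loads peptides onto MHC class II molecules, had 12.6, 12.4 and 11.1 on the 3 h arrays, against 24.5, 20.6 and 20.5 on the unirradiated arrays, a log2 change of -0.86 (SE 0.12, adjusted p = 9.07e-05). CHD9, a chromatin remodeller, had 3.55, 2.94 and 2.99 on the 3 h arrays, against 5.77, 5.15 and 5.36 on the unirradiated arrays, a log2 change of -0.78 (SE 0.12, adjusted p = 0.000203), with a second kept probe at -0.016 that did not pass (adjusted p = 0.949). These groups too were far apart. LINC02593, a long non-coding RNA, had 2.44, 2.34 and 2.58 on the 3 h arrays, against 4.39, 4.27 and 4.55 on the unirradiated arrays, a log2 change of -0.84 (SE 0.081, adjusted p = 3.46e-06). INSC, an adaptor of spindle orientation, had 20.9, 21.2 and 21.6 on the 3 h arrays, against 38.5, 36.6 and 34.8 on the unirradiated arrays, a log2 change of -0.79 (SE 0.10, adjusted p = 5.53e-05). Each call in this paragraph held under every omission.

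The other falls of the 20 lay between -0.79 for SNORA33, a small nucleolar RNA, and -0.95 for CDX2, an intestinal homeobox gene, and included SLC6A13 (-0.91), SLC17A6 (-0.89), ACAP1 (-0.86), FAM174A (-0.85), CD1B (-0.84), VILL (-0.82) and SLC22A15 (-0.79), besides PSRC1 and NEAT1. Several of the dim ones rested on 3 h array 2, the array with the most missing values. CDX2 had 1.37, 0.385 and 1.22 on the 3 h arrays, against 1.89, 1.74 and 1.41 on the unirradiated arrays, and changed by -0.37 without 3 h array 2. CD1B had 0.788, 0.357 and 0.754 on the 3 h arrays, against 1.09, 0.996 and 1.11 on the unirradiated arrays, and changed by -0.47 without it. SLC17A6 had 0.856, 0.405 and 0.729 on the 3 h arrays, against 1.08, 0.914 and 1.61 on the unirradiated arrays, and changed by -0.57 without it. None of the 3 passed without that array, nor without unirradiated array 1 (-0.86, -0.81 and -0.94). CDX2 also missed the threshold without unirradiated array 2 (-0.92), and CD1B and SLC17A6 without unirradiated array 3 (-0.81 and -0.65). Array 2 was the lowest of the 3 h arrays for 10 of the 20 largest falls and for 45.4% of all 709 genes that fell. Second probes of CDX2 (0.35, adjusted p = 0.0186) and SLC22A15 (0.48, adjusted p = 0.00421) rose.

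Probes of 1 gene often disagreed. Of the called genes, 426 had another kept probe, and for 173 of them another probe had the opposite sign, which passed the test in 24 genes. Another probe with the same sign passed in 82. Some of the strongest changes lay in probes that were not the brightest of their gene. A probe of SLC25A3, the mitochondrial phosphate carrier, fell by 2.09 on the log2 scale (adjusted p = 1.29e-10), while the brightest probe did not pass at 0.18 (adjusted p = 0.241). A probe of WTAP, a subunit of the RNA methyltransferase complex, rose by 0.97 (adjusted p = 1.25e-05), and the brightest by 0.22 (adjusted p = 0.0493). A probe of HNRNPA2B1, a splicing regulator, changed by -0.75 (adjusted p = 3.98e-06), and the brightest by -0.046 (adjusted p = 0.766).

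Few changes were called at 1 h: 337 of 29914 probes (1.13%) passed, among genes 78 (0.61%) higher and 66 (0.516%) lower, and 195 probes were called in the same direction at both times, which is 4.4% of the calls at 3 h and 57.9% of those at 1 h. Both times share the unirradiated arrays. The 1 h count ran from 109 without unirradiated array 1 through 120, 129 and 196 without unirradiated array 2, 1 h array 2 and unirradiated array 3, to 213 and 247 without 1 h arrays 3 and 1. ID1 had 10.5, 10.6 and 9.94 on the unirradiated arrays, 5.96, 5.35 and 4.65 at 1 h and 4.98, 5.07 and 4.85 at 3 h, so its change was already -0.97 at 1 h (adjusted p = 3.05e-06). THBS1 was at 0.66 at 1 h (adjusted p = 0.00302) and 0.71 at 3 h. IRF1 stood at 0.39 (adjusted p = 0.0185) and 0.41, and CXCL2 at -0.54 (adjusted p = 0.0018) and -0.64. Each of these genes had passed the test at 1 h in the direction it held at 3 h.

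The step between 1 h and 3 h passed the test in 1934 probes (6.47%), 611 genes (4.78%) higher at 3 h and 420 (3.28%) lower. It was 913 and 1106 probes without 3 h arrays 2 and 3, and 1222 and 1151 without 1 h arrays 1 and 2. TRAF1 had 1.16, 1.21 and 1.38 on the unirradiated arrays, 1.33, 1.01 and 1.05 at 1 h and 2.75, 2.39 and 2.56 at 3 h, a step of 1.19 (adjusted p = 2.41e-05), and RELB stepped up by 1.04 (adjusted p = 2.99e-05). NFKBIA ran the other way, with 38.1, 31.9 and 34.04 on the unirradiated arrays, 44.3, 46.8 and 43.97 at 1 h and 34.4, 31.97 and 30.6 at 3 h. Its rise at 1 h was 0.38 (adjusted p = 0.0151) and its step to 3 h was -0.48 (adjusted p = 0.000635). On the NF-kB list 2 genes rose and 2 fell at 1 h, 11 rose and 3 fell at 3 h, and 8 stepped up and 1 stepped down between them. The median was -0.021 at 1 h and 0.28 at 3 h.

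PLK2 had 16.4, 17.3 and 17.8 on the unirradiated arrays, 26.7, 23.6 and 29.02 at 1 h and 14.8, 13.2 and 15.5 at 3 h, high at 1 h and below the unirradiated arrays at 3 h. Its change at 1 h was 0.62 (adjusted p = 0.000382) and its step to 3 h -0.87 (adjusted p = 2.92e-06). CLK1, a kinase of splicing factors, had 13.7, 14.2 and 14.9 on the unirradiated arrays, 7.07, 8.05 and 6.81 at 1 h and 15.3, 14.7 and 13.9 at 3 h. It was low at 1 h (-0.97, adjusted p = 4.68e-06) and did not differ from unirradiated cells beyond the spread at 3 h (0.038, adjusted p = 0.814). ARID5B, a DNA-binding chromatin regulator, was at 0.48 at 1 h (adjusted p = 0.00374) and -0.40 at 3 h (adjusted p = 0.00247). PIF1 (-1.22), FOS (-0.87), PSRC1 (-0.86), LINC02593 (-0.86), ATOH8 (-0.83) and RASSF9 (-0.82) also stepped down between 1 h and 3 h, and PPP1R15A (0.94), GTPBP2 (0.88), SERPINE2 (0.82), IL11 (0.80) and FHL3 (0.77) stepped up, each with an adjusted p of at most 0.05. On the mitotic list 15 of 36 genes stepped down and none stepped up, against 3.28% and 4.78% of all genes.

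Carbon ions at the same dose and time called a similar number of probes in HMV-I. X-rays called 4429 and carbon ions 4312 (14.4%; 9.08% of genes higher and 5.59% lower), each against their own unirradiated arrays. Of these, 530 rose after both, 702 fell after both and 80 went opposite ways, so that 27.8% of the X-ray calls and 28.6% of the carbon-ion calls were shared in direction. Across the 29914 probes the changes correlated at 0.36 (Spearman 0.37), where the points share arrays of 2 sets and are not independent. The sets differed before irradiation: 14275 probes (47.7%, with 26.8% of genes higher and 25.9% lower in the X-ray set) were called between the unirradiated arrays of the X-ray set and those of the carbon-ion set. The first principal component of the 18 HMV-I arrays held 58.3% of the variance. Beam and set cannot be told apart, beyond what each set's own controls remove.

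The difference between the beams passed for 855 probes (2.86%), 309 genes (2.42%) higher after X-rays and 189 (1.48%) lower. Rises made up 53.3% of these calls after quantile normalization, 42.2% after median centring and 77.7% on the deposited scale. The count was 248 and 470 without unirradiated X-ray arrays 1 and 3, 339 and 338 without 3 h X-ray arrays 2 and 3, 507, 526 and 553 without unirradiated carbon-ion arrays 1, 2 and 3, and 483 and 491 without 3 h carbon-ion arrays 1 and 3. Of the lists, the mitotic one had the most differences: 12 of 36 genes had a higher change after X-rays than after carbon ions and 0 a lower one. After X-rays 8 of the 36 fell and 1 rose, with a median of -0.062, against 26 falls, no rise and a median of -0.46 after carbon ions, where 5.59% of all genes fell. SPDL1, a spindle checkpoint adaptor, changed by -0.036 after X-rays and -1.25 after carbon ions, a difference of 1.21 (adjusted p = 0.00556). TPX2, a spindle assembly factor, changed by 0.054 after X-rays and -0.87 after carbon ions, a difference of 0.92 (adjusted p = 0.00463). PIF1 fell alike, with -1.41 after X-rays and -1.29 after carbon ions, and their difference of -0.13 did not pass (adjusted p = 0.545). CDK1 had -0.45 after X-rays and -0.048 after carbon ions, a difference that did not pass either (-0.40, adjusted p = 0.0788).

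**Figure D4:**
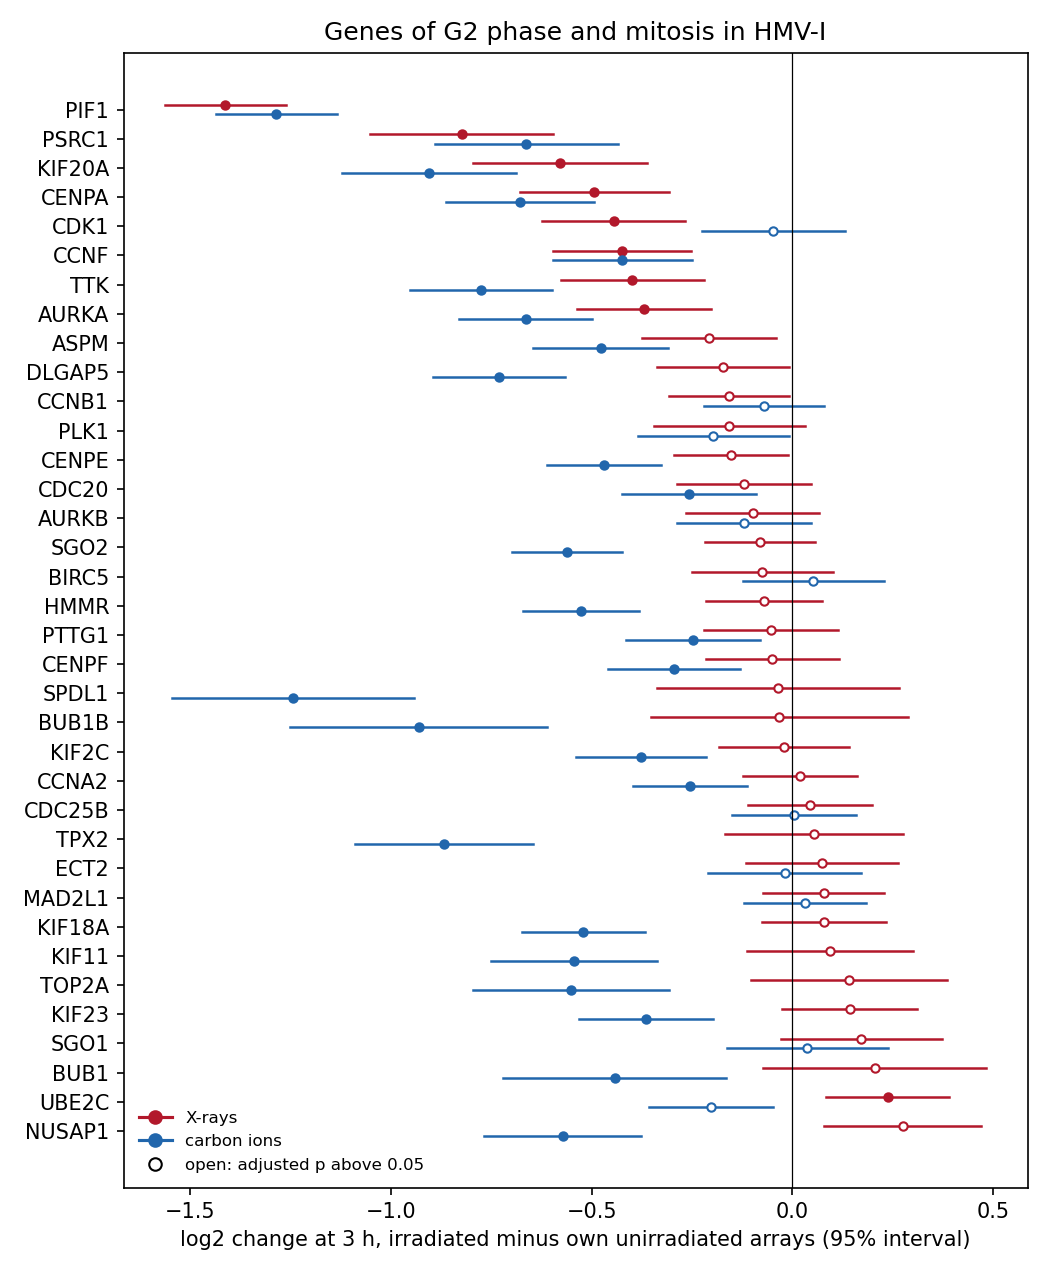
Log2 change at 3 h of 36 genes of G2 phase and mitosis in HMV-I after X-rays (red, upper) and after carbon ions (blue, lower), each against its own unirradiated arrays, with 95% intervals and open circles where the adjusted p exceeds 0.05. PIF1, PSRC1, KIF20A and CENPA are low after both beams, and TPX2, BUB1B and SPDL1 have X-ray intervals that include 0 and are low after carbon ions.

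Outside that list, OLR1, a scavenger receptor, had 3.04, 3.83 and 3.298 at 3 h after X-rays, against 1.904, 2.21 and 2.17 on the unirradiated arrays of that set. After carbon ions it had 3.72, 4.58 and 3.67, against 6.51, 5.43 and 6.701 on its own unirradiated arrays. It rose after X-rays (0.69) and fell after carbon ions (-0.64), a difference of 1.33 (adjusted p = 0.000465). CCN1 fell after X-rays (-0.71) and stood at 0.17 after carbon ions, a difference of -0.87 (adjusted p = 0.000465). TFRC, the transferrin receptor, rose by 0.45 after X-rays and was at -0.71 after carbon ions (difference 1.17, adjusted p = 0.00171). RRM2 changed by 0.82 after X-rays and was not called after carbon ions (difference 0.82, adjusted p = 0.00656). On the NF-kB list BIRC2 (0.94) and BCL3 (0.45) were higher after X-rays, and RELB, at 0.91 after X-rays and 0.68 after carbon ions, did not differ beyond the spread (adjusted p = 0.501). The p53 list had a median of 0.12 after X-rays and 0.11 after carbon ions, with KITLG alone passing the test of the difference (-0.74, adjusted p = 0.03).

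Against the other lines, 1204 of 26117 probes (4.61%) had a 3 h change in HMV-I that differed from the mean of the 5 other lines. Of the 11300 genes, 322 (2.85%) were higher in HMV-I and 308 (2.73%) lower. The count of probes was 498 and 602 without HMV-I 3 h arrays 2 and 3, and 480, 750 and 735 without HMV-I unirradiated arrays 1, 2 and 3. The error here is the spread between arrays and leaves out the spread between lines. On the NF-kB list 4 genes were higher and 1 lower. NFKB1 rose in HMV-I (0.57) and lay between -0.17 and -0.027 in the other lines, a difference of 0.68 (adjusted p = 3.78e-05). RELB was at 0.91 in HMV-I, against 0.77 in HMV-II, 0.41 in 92-1 and -0.050 to 0.16 in the others (difference 0.67, adjusted p = 0.00298). BIRC2 and ICAM1 differed by 0.73 (adjusted p = 0.0138) and 0.40 (adjusted p = 0.00411). NFKBIA was the lower one, at -0.099 in HMV-I, against -0.023 to 0.78 in the others (difference -0.50, adjusted p = 0.00565). Over the 16 list members measured in all lines the median was 0.29 in HMV-I, against 0.17 in MeWo, 0.14 in HMV-II, 0.092 in 92-1, 0.018 in C32TG and -0.076 in Colo679.

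PIF1 was lower at 3 h in all 6 lines, with a log2 change of -1.41 in HMV-I, against -0.72 to -0.40 in the others, a difference of -0.90 (adjusted p = 8.13e-05). PSRC1 behaved likewise, at -0.82 in HMV-I, against -0.37 to -0.15 in the others (difference -0.57, adjusted p = 0.00046). These were the 2 genes whose change differed, out of the 32 of the mitotic list measured in all lines, where 2.73% of all genes were lower in HMV-I. ZNF793 (-0.80), FOS (-0.86) and FAM174A (-0.99) were lower in HMV-I than in the mean of the others, and RRM2 (0.94), SERPINE2 (0.86) and IFIT3 (0.55) higher. Scaling moved the split here too: 45.3% of the 1204 calls were higher in HMV-I after quantile normalization, 43.5% after median centring and 69.9% on the deposited scale.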

How the data were processed

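RNA was extracted with ISOGEN and RNeasy, labelled with biotin and hybridised to single-colour CodeLink human whole genome arrays, per the labels' protocols. The deposited values are linear spot intensity; scanner settings and any background step are not stated in the labels or files read here. The arrays' medians lie near 1. From these values, log2 was taken and all 108 arrays were quantile normalized. Kept probes had a value on all 18 HMV-I arrays and a mean log2 above the 40th percentile of all probes (-0.346). The fit was limma 3.58.1 in R 4.3.3 (lmFit, eBayes with trend, two-sided) over the 18 HMV-I arrays in 6 groups, with Benjamini-Hochberg adjustment over all kept probes and a call at an adjusted p of 0.05. The comparison of lines used 36 X-ray arrays. Tested on simulated data over 29914 probes for the 3 h comparison, 68% of 100 changes of 0.5 (log2) and 98% of 100 changes of 1 were called, with 10 false calls. The simulated noise was independent between probes, and no other probe was changed. It holds no deviation shared across an array, so its false calls are not an estimate for the real arrays. Arrays carry no read depth, and their number limits the precision.

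Names came from GEO's platform annotation: 23472 of 54359 probes had 1 gene symbol, 905 several and 29982 none, and 23434 symbols matched RefSeq (GRCh38.p14). A gene stands for its brightest kept probe. Genes were named by rule: the 20 largest called rises and falls without overlap of the groups, up to 6 members of each of 28 lists by p, and up to 8 genes in each direction of each tested difference. Further list members and the probes of SLC25A3, WTAP and HNRNPA2B1 were chosen after their values were seen. The members and lists were chosen with earlier results of these data known. The alternatives tried were other scalings, filters, missing-value limits, variance models, fewer arrays in the fit, a block for the replicate number, and leaving out single arrays or lines.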

Additional observations from a re-analysis of the deposited data

Results flagged for a closer look

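Among the 20 largest rises and falls, the genes with the largest differences, the genes always named and 7 list members whose differences are given above, 28 differences between the beams and 47 between HMV-I and the mean of the 5 other lines passed limma's test of the difference itself, adjusted over all kept probes. Values are differences of log2 changes at 3 h. Beam and array set cannot be told apart, and the spread between lines is not in the error.

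After X-rays minus after carbon ions, with adjusted p from 0.000465 to 0.049, the higher ones held genes of vesicle transport, COPG1 (0.934) and TMED2 (1.13), and of peptide loading, TAPBP (1.14). The receptors OLR1 (1.33) and TFRC (1.17), the spindle genes SPDL1 (1.21) and TPX2 (0.922), the NF-kB list's BIRC2 (0.936) and BCL3 (0.447), and the nucleotide enzyme RRM2 (0.817) were higher too. So were PIP5K1A (1.2), PIGS (1.11), SAFB (1.11), STARD7 (1.08), ZNF146 (0.847), UBXN2B (0.784), SERPINE2 (0.759) and TJP1 (0.757). PIGS did not pass after X-rays alone, with 165.7, 179 and 170.3 on the 3 h arrays, against 149.9, 168 and 180.3 on the unirradiated arrays. The lower ones, with adjusted p from 0.000465 to 0.0464, were CER1 (-1.09), ZFAT (-1.02), LPP (-0.927), VILL (-0.899), CCN1 (-0.873), PWAR6 (-0.831), SLC45A1 (-0.816), SNX18 (-0.812), KITLG (-0.74) and HLA-DMB (-0.618). ZFAT, a zinc finger gene, had 8.95, 9.13 and 8.44 on the 3 h X-ray arrays, against 12.4, 11.1 and 10.2 on the unirradiated arrays.

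In HMV-I minus the other lines, with adjusted p from 3.78e-05 to 0.0406, the higher ones were STARD7 (1.12), ZNF146 (1.09), SEC24B (1.07), UBXN2B (1.03), COPG1 (1), TAPBP (1), TMED2 (0.956), RRM2 (0.94), TJP1 (0.88), SERPINE2 (0.861), EEF1A2 (0.831), FHL3 (0.821), EPOR (0.704), HECTD3 (0.682) and the interferon-stimulated IFIT3 (0.548), with BIRC2 (0.729), NFKB1 (0.685), RELB (0.665) and ICAM1 (0.397) of the NF-kB list. The lower ones, with adjusted p from 7.59e-07 to 0.0486, held p53 targets: CDKN1A (-0.891), GADD45A (-0.875), PLK2 (-0.694), ATF3 (-0.664), PLK3 (-0.517), GDF15 (-0.476) and KITLG (-0.435). Signalling and mitotic genes among them were FOS (-0.859), ID1 (-0.622), NFKBIA (-0.5), PIF1 (-0.899) and PSRC1 (-0.572). The remaining ones were SYNGR1 (-1.16), FAM174A (-0.986), SLC17A6 (-0.905), SLC6A13 (-0.897), ZNF793 (-0.796), CD1B (-0.783), CER1 (-0.771), VILL (-0.681), HLA-DMB (-0.65), INSC (-0.644), PWAR6 (-0.626), AHSA2P (-0.611), SNX18 (-0.605), SLC22A15 (-0.54), FUBP1 (-0.52) and CHD9 (-0.381). SYNGR1 rests on 1 array, with 2.32, 0.385 and 2.07 on the 3 h HMV-I arrays, against 2.48, 2.48 and 2.75 on the unirradiated arrays. The 3 h changes of SEC24B, CD1B and SLC17A6 also rested in large part on single arrays, and a second probe of SLC22A15 rose, as given above.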

How the results depend on the processing

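The count of 4429 probes at 3 h lay between 3814 and 4678 under the 9 alternatives that kept all arrays and between 2452 and 3884 when single arrays were left out. The 337 calls at 1 h became 198 and the 1934 between 1 h and 3 h became 1239 on the deposited scale; with only the arrays compared they became 114 and 1100. With single arrays left out, the calls at 1 h ran from 109 to 247, those between 1 h and 3 h from 913 to 1830, those between beams from 248 to 1172 and those between lines from 480 to 1507. Rises made up 44.5% of the 1 h calls, 59.4% after median centring and 54.5% on the deposited scale. The NF-kB median of 0.28 was 0.32 after median centring and 0.32 on the deposited scale, 0.25 with the filter over all arrays of the series, and 0.24 to 0.30 without single arrays. The mitotic median of -0.062 became 0.0043 and 0.0059 under those scalings and ran from -0.099 to -0.031 without single arrays. The p53 median ran from 0.090 to 0.13. The change of NFKBIA turned to 0.0061 and 0.0078 under those scalings. Same-numbered arrays of the 3 h and unirradiated groups correlated at 0.1, 0.059 and 0.038 in their deviations. Of the 3 arrays at 3 h, 2 correlated best with the unirradiated array of their own number. So few arrays cannot decide whether same-numbered arrays were paired. With the replicate number as a block the counts were 4322, 274, 1909, 916 and 1293 for the 3 h, 1 h, 3 h minus 1 h, beam and line tests. Of 1675 values of 112 named genes under the alternatives, 1428 kept direction and side of the threshold and 247 did not, and 60 genes never changed. Besides the calls given above, both scalings ended those of ADM, ALDOC, CEBPB, IFITM1, KLF4, MCM2, PARP1, RPL32 and UBE2C. Without the level filter, 14 calls ended, all of genes that also lost theirs when single arrays were left out (ADM, ALDOC, ATF3, CEBPB, ID2, IFITM1, KLF4, MCM2, MCM4, PARP1, PLK2, RPL32, TNF and UBE2C). The replicate block ended those of ALDOC, ATF3, CEBPB, ID2, PARP1 and RPL32 and changed no other call of a named gene. Where a call was lost, the cause was not tested, beyond the smaller number of arrays where 1 was left out. The median change was 0.0042 in the brightest 20% of probes after quantile normalization, 0.083 after median centring and 0.085 on the deposited scale.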

Other observations

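Among genes outside the lists that the tests of differences named, 3 had further values at 3 h not given above. TMED2, a cargo receptor of coated vesicles, had 21.6, 31.4 and 28.5 on the 3 h arrays, against 16.6, 21.03 and 16.1 on the unirradiated arrays, a log2 change of 0.60 (adjusted p = 0.00601). TAPBP, the tapasin that loads peptides onto MHC class I molecules, had 4.24, 5.27 and 4.93 on the 3 h arrays, against 3.52, 3.48 and 2.69 on the unirradiated arrays, a log2 change of 0.58 (adjusted p = 0.0102). ZNF146, a zinc finger gene, had 8.13, 9.74 and 9.12 on the 3 h arrays, against 5.14, 5.87 and 5.80 on the unirradiated arrays, a log2 change of 0.68 (adjusted p = 0.000268). In each gene the groups did not overlap, and array 1 was the lowest of the 3 h arrays. These genes were chosen after their values were seen.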
